A study of Ovis aries with 20 samples.

Results

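Imprinted genes are expressed mainly from the copy inherited from 1 parent, and 9 of them, DLK1, MEST, PLAGL1, PEG3, GRB10, CDKN1C, IGF2R, SGCE and PEG10, were followed here in the wall of the sheep ovarian follicle. They were taken by gene name from the 28524 rows of the deposited expression table. The set was chosen with earlier results of these data known. All 9 names were found, and 8 were expressed highly enough to be tested. The exception was DLK1.

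RNA sequencing had been done on granulosa cells, the inner layer of the follicle, which produces estradiol, and on theca cells, the outer layer, which supplies androgen. The animals were female sheep (Ovis aries), 21 months old. Control sheep 139, 224, 244, 246 and 268 were born to ewes given vehicle. Prenatal testosterone (prenatal T) sheep 209, 210, 230, 276 and 315 were born to ewes that received 100 mg of testosterone propionate (1.2 mg/kg) intramuscularly, 2 times a week from day 30 to day 90 of gestation. All animals, controls included, had estrus synchronized by 2 injections of 10 mg prostaglandin F2 alpha 11 days apart, and ovaries were taken 18 hours after the second. Each library pooled cells cut out by microdissection from several antral follicles of 1 animal, so follicles of differing size or health within an animal were not separated. The 19 libraries used comprised 4 control and 5 prenatal T granulosa libraries and 5 control and 5 prenatal T theca libraries, at 12.7 to 26.0 M reads each (M, 1e+06 reads). Granulosa of control sheep 139 were not analysed here. Levels are normalized counts, that is, reads per gene over the size factor that the authors gave each library. They are not divided by gene length, so levels are compared between libraries for 1 gene and never between genes.

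Imprints are set in the germ line as methyl marks on DNA and are kept through development, and many imprinted genes act on fetal growth, the placenta and the exit of cells from division. Paternally expressed genes of this set are DLK1, MEST, PLAGL1, PEG3, SGCE and PEG10, whereas IGF2R and CDKN1C are expressed from the maternal copy and GRB10 from either, depending on the tissue. These assignments come mostly from mouse and human. The counts do not separate the parental copies, so only total RNA was compared.

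Both libraries of sheep 209 stood apart. Of 14 granulosa markers, AMH, FSHR and CYP19 were at 0 in both, and of 14 theca markers CYP17A1 was at 0 in both. The summed level of 10 epithelial markers was 85112 in its granulosa library against at most 4368 in the other 8, and 20975 in its theca library against at most 1051 in the other 9. Summed immune markers were 17739 and 20150 (at most 2281 and 2459 in the others). Among the 9 imprinted genes its granulosa library lay outside the range of the other granulosa libraries for 6, and its theca library for 7 of 9, against 65.0% and 60.5% of all tested genes. PEG10 was lowest relative to the rest, at 21.9 in granulosa and 83.5 in theca, a difference of -7.45 and -6.17 log2 units from the median of the other libraries, whose lowest values were 2946 and 3694. PLAGL1 in granulosa (657 against at most 122) and IGF2R in both layers (18622 and 12312 against at most 9208 and 6696) were above the others instead. GRB10 in this animal lay within the range of the others in both layers, at 330.2 and 1231. Results are therefore given with and without this animal. In the other 17 libraries, all 14 theca markers were lower in granulosa than in theca, and 12 of 14 granulosa markers were higher. Of all genes tested there, 32.2% passed in limma as lower and 32.9% as higher. The marker lists were chosen with earlier results of these data known, so these counts only describe the libraries.

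**Figure D1:**
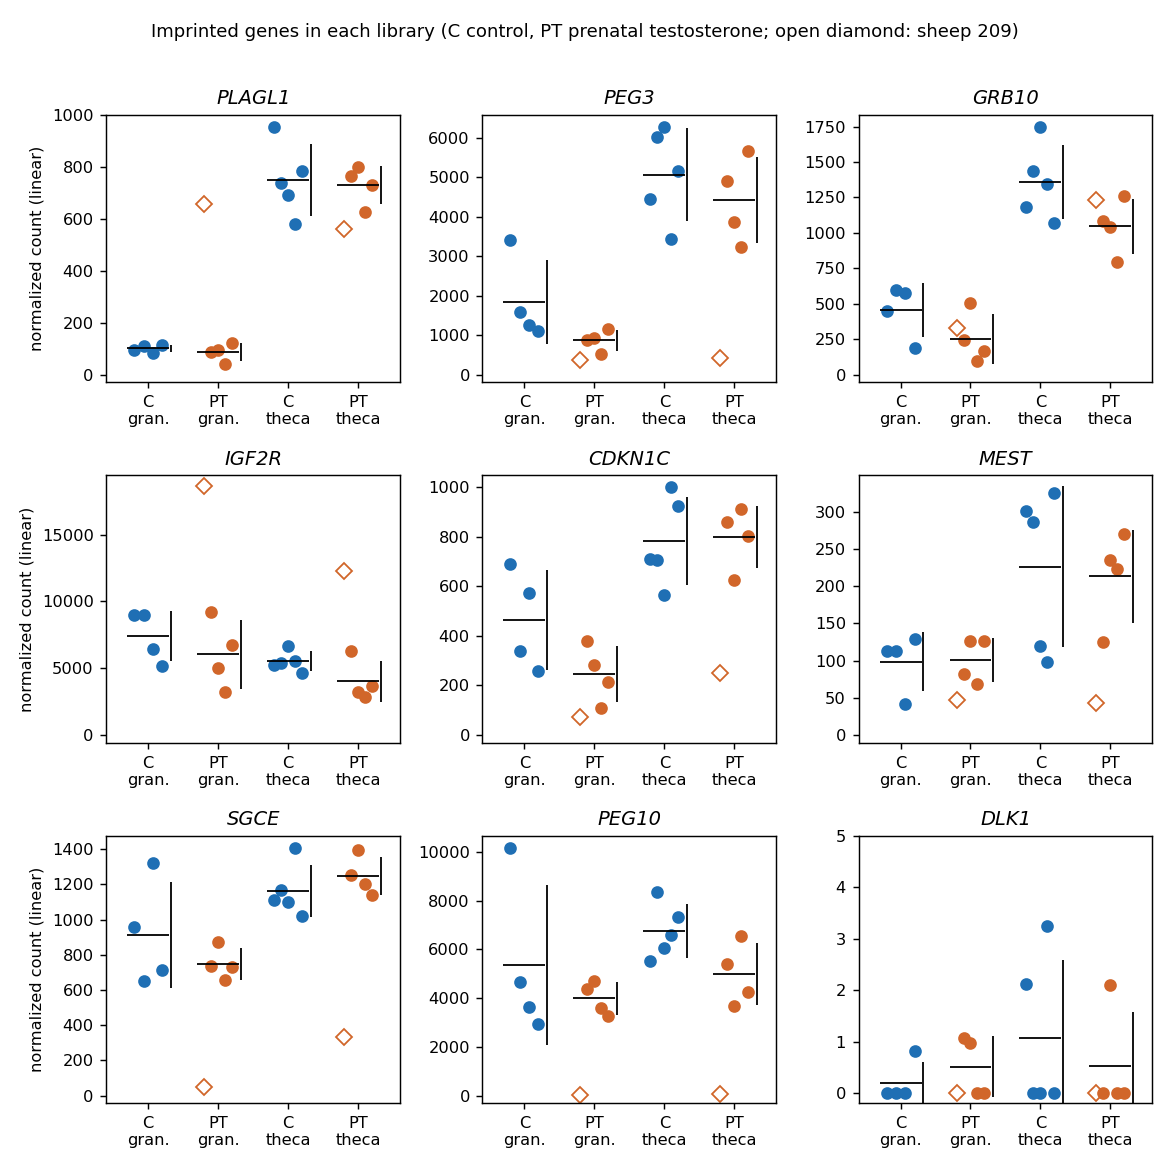
Normalized count (linear axes, 1 panel per gene) of the 9 imprinted genes in each library, by group, with circles for single animals, open diamonds for sheep 209, and horizontal and vertical lines for the mean and SD without sheep 209. PLAGL1 and GRB10 show separate levels in the layers outside sheep 209, IGF2R is the gene with higher granulosa levels, and DLK1 stays at or below 3.25 in every library.

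The first comparison asks which of these genes distinguish the 2 layers. Most were lower in granulosa than in theca. Over all 19 libraries 7 of the 8 tested genes passed (limma with the animal as a block, adjusted p under 0.05), 6 of them lower and 1, IGF2R, higher in granulosa. Across all 16269 genes tested in that comparison 57.2% passed, 29.2% as higher and 28.0% as lower. The median change of the 8 genes was -1.13 on the log2 scale, against 0.026 for all genes tested. Without sheep 209 all 8 passed, 7 lower and 1 higher, against a background of 65.2% (32.9% higher, 32.2% lower). In edgeR and in DESeq2, which had no animal block, 7 of 8 passed without sheep 209, all but PEG10 (52.3% and 53.6% of all genes). With all libraries 5 of 8 passed in limma without the block, in edgeR and in DESeq2 (35.2%, 35.7% and 39.0% of all genes). Fewer cells of a type and less RNA per cell cannot be told apart in such bulk samples.

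PLAGL1, a zinc-finger transcription factor that can halt the cell cycle, had the largest layer difference of the 8. Control granulosa libraries held 96.2, 111, 84.6 and 115 normalized counts (sheep 224, 244, 246 and 268) and prenatal T granulosa libraries 88.3, 96.0, 41.3 and 122 (sheep 210, 230, 276 and 315). Theca libraries of the 5 controls held 956, 739.8, 694, 580.0 and 786 (sheep 139, 224, 244, 246 and 268), and those of the same 4 prenatal T animals 765, 799.6, 629 and 732. Outside sheep 209 the layers did not overlap: the highest granulosa value lies far below the lowest theca value. In sheep 209 the layers were alike, 657 in granulosa and 563 in theca. PLAGL1 was 6.24-fold lower in granulosa over all libraries (log2 -2.64 ± 0.28 SE, limma adjusted p = 3.1e-07) and 7.91-fold lower without sheep 209 (-2.98 ± 0.12, 3.9e-12).

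PEG3, a large zinc-finger protein linked to cell death, was lower in granulosa as well. Its granulosa values were 3413, 1583, 1249 and 1105 in controls 224, 244, 246 and 268 and 367, 872, 917, 524 and 1156 in prenatal T sheep 209, 210, 230, 276 and 315. Its theca values were 4443, 6018, 6280.4, 3421 and 5153 in controls and 418, 4897, 3867, 3242 and 5671 in prenatal T animals, in the same order. Control sheep 224 had the highest granulosa value, which was above theca of sheep 276, and each animal had less PEG3 in granulosa than in its own theca. The change was -1.77 ± 0.25 with all libraries (adjusted p = 1.2e-05) and -1.99 ± 0.15 without sheep 209 (limma, 3.9e-09).

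CDKN1C encodes p57, an inhibitor of cyclin-dependent kinases that holds cells in G1. It was measured at 688, 337, 573 and 258 in control granulosa and at 72.5, 379, 284, 110.0 and 214 in prenatal T granulosa, with sheep in the order above. Theca held 709.8, 706, 565, 1001 and 926 in controls and 249, 860.2, 625, 910.2 and 802 in prenatal T animals. The layers overlapped through control granulosa of sheep 224 and 246 and through theca of sheep 209. CDKN1C was 2.50-fold lower in granulosa (-1.32 ± 0.21, limma adjusted p = 3.4e-05), and the value without sheep 209 was -1.33 ± 0.19.

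GRB10 is an adaptor that binds the insulin and IGF1 receptors and limits their signal. Granulosa values were 449.6, 599.9, 578 and 185 in controls and 330.2, 247, 502, 98.6 and 166 in prenatal T animals. Theca values were 1179, 1439, 1749, 1344 and 1072 in controls and 1231, 1086, 1045, 792 and 1261 in prenatal T animals. No granulosa library reached any theca library, sheep 209 included. GRB10 was the 1 member of the 9 whose layers were separate over all libraries, where 5.47% of all tested genes were separate in either direction and 4.59% with granulosa lower. Without sheep 209 PLAGL1 joined it (background 16.8%, of which 11.0% had granulosa lower and 5.74% higher). GRB10 was 3.90-fold lower in granulosa (-1.96 ± 0.18, limma adjusted p = 8.5e-08).

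IGF2R, the receptor that binds IGF2 and carries it to the lysosome, went the other way. Granulosa held 8948, 8974, 6455 and 5187 in controls and 18622, 9208, 5006, 3192 and 6763 in prenatal T animals. Theca held 5278, 5368, 6696, 5562 and 4676 in controls and 12312, 6285, 3205, 2885 and 3665 in prenatal T animals. The groups overlapped widely, yet within animals granulosa was above theca in 9 of 9, at 111% to 185% of the theca level. The change was 0.48 ± 0.16 (adjusted p = 0.014) and 0.47 ± 0.12 without sheep 209 (limma, 0.0028). With all libraries the call was lost without the animal block: adjusted p was then 0.23 in limma, 0.19 in edgeR and 0.20 in DESeq2. Without sheep 209 it passed in edgeR (adjusted p = 0.030) and DESeq2 (0.024), also without the block. In limma with the block the adjusted p was 0.057 with no filter on low values and 0.050 without sheep 224.

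MEST, a protein with an alpha/beta hydrolase fold known from fetal growth, was measured at 113, 112, 41.2 and 129 in control granulosa and at 47.2, 81.8, 126, 68.8 and 127 in prenatal T granulosa. In theca it was 301, 286, 119.5, 98.5 and 326 in controls and 43.0, 125, 235, 223 and 271 in prenatal T animals. Theca of sheep 209, 210, 244 and 246 lay among the granulosa values. MEST was 1.92-fold lower in granulosa (-0.94 ± 0.22, limma adjusted p = 0.0014), and without sheep 209 the change was -1.07 ± 0.20.

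SGCE and PEG10 are next to each other in the RefSeq gene table of sheep. SGCE encodes epsilon-sarcoglycan, a membrane protein of the dystrophin-associated complex. It stood at 957, 654, 1323 and 716 in control granulosa, at 48.3, 735, 874, 658 and 728 in prenatal T granulosa, at 1112, 1167, 1102, 1408 and 1019 in control theca and at 332, 1255, 1394, 1205 and 1140.0 in prenatal T theca. Outside sheep 209 only control granulosa of sheep 246 entered the theca range. SGCE was lower in granulosa, at -0.77 ± 0.25 on the log2 scale with all libraries (adjusted p = 0.014) and -0.57 ± 0.08 without sheep 209 (limma, 7.5e-06). With all libraries the call was lost without the animal block (adjusted p = 0.19), in edgeR (0.26) and in DESeq2 (0.20).

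PEG10 derives from a retrotransposon and has kept its gag and pol frames, and it is needed for the placenta. It was measured at 10149.5, 4658, 3645 and 2946 in control granulosa and at 21.9, 4382, 4716, 3577 and 3280.0 in prenatal T granulosa. Theca held 5509.8, 8337, 6069, 6595 and 7328 in controls and 83.5, 5414, 3694, 6566 and 4249.5 in prenatal T animals. In the 8 animals other than sheep 209 with both layers, 6 had less PEG10 in granulosa and 2, sheep 224 and 230, had more. The layer difference was not called over all libraries (-0.58 ± 0.48, adjusted p = 0.32), and without sheep 209 it passed in limma at -0.42 ± 0.15 (0.025) but not in edgeR (-0.30, adjusted p = 0.25) or DESeq2 (-0.33, 0.18). SGCE was lower in granulosa in all 8 of these animals, so the 6 of 8 is the count of PEG10 alone. Across animals without sheep 209, SGCE and PEG10 had r = 0.26 in granulosa (exact permutation p = 0.49, n = 8). In theca r was -0.37 (exact permutation p = 0.33, n = 9). CASD1, a sialic acid acetyltransferase gene on the other side of SGCE, was at 0.10 ± 0.09 between the layers and did not pass.

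**Figure D2:**
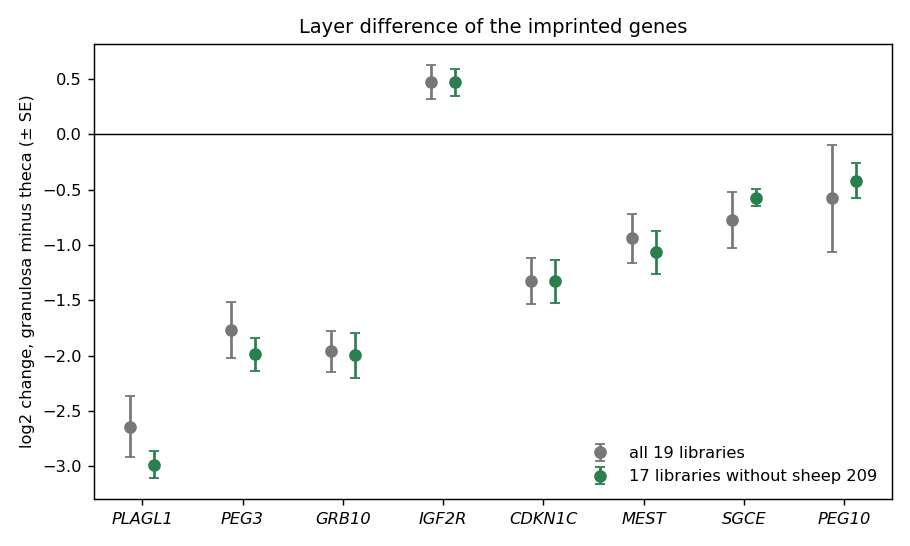
Layer difference (log2 change, granulosa minus theca, linear axis, with bars of ± 1 SE) of the 8 tested imprinted genes in the limma fit with all 19 libraries (grey) and with 17 libraries without sheep 209 (green). IGF2R is above 0 and the other 7 genes are below it, and leaving out sheep 209 narrows the error of PEG10 from 0.48 to 0.15.

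DLK1, a membrane protein with EGF repeats that can act on Notch and adipocyte formation, was at the limit of detection. It gave 3 reads over 9 granulosa libraries and 7 reads over 10 theca libraries, with at most 3 in any 1. It was at 0 in 6 of 9 and in 7 of 10. A count of 3 reads corresponds to 1.67 to 3.55 normalized counts in granulosa libraries and 2.62 to 3.80 in theca libraries, which is the level that a count of 0 still allows (counting error only). No layer or treatment difference of DLK1 was therefore detectable at this depth. GTL2, the maternally expressed non-coding RNA next to DLK1 in the gene table (known as MEG3 in human, within the callipyge region of sheep), was detected throughout. It ran from 154 to 456 in granulosa and from 1127 to 3887 in theca, without overlap. GTL2 was 6.97-fold lower in granulosa (-2.80 ± 0.17, limma adjusted p = 2.6e-10). RTL1, the next gene, was at 0 to 36.7 in granulosa and 0 to 98.3 in theca and did not pass (-0.73 ± 0.50).

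The layers can also be set against each other within an animal, as the granulosa level in percent of the theca level. In the 8 animals other than sheep 209, PLAGL1 in granulosa was 6.56% to 16.7% of theca (median 13.8%). The median over the 14 theca markers in the same animals was 5.84% to 19.9% (median 9.47%), and COL1A1, the collagen chain that is abundant in theca, was 2.30% to 9.06%. PLAGL1 thus lay in the range of theca markers, and whether its granulosa reads came with theca RNA was not tested. PEG3 (16.2% to 56.7%), GRB10 (12.4% to 48.0%) and CDKN1C (12.1% to 97.4%) spread more widely. MEST was at 30.8% to 94.1%, SGCE at 54.6% to 94.0% and PEG10 at 40.2% to 128%. Sheep 276 had the lowest percentage of the 8 animals for PLAGL1, PEG3, GRB10, CDKN1C, IGF2R, MEST and SGCE, though not for PEG10, and also for the theca markers. In sheep 209 PLAGL1 was at 117%, PEG3 at 87.9% and SGCE at 14.6%.

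**Figure D3:**
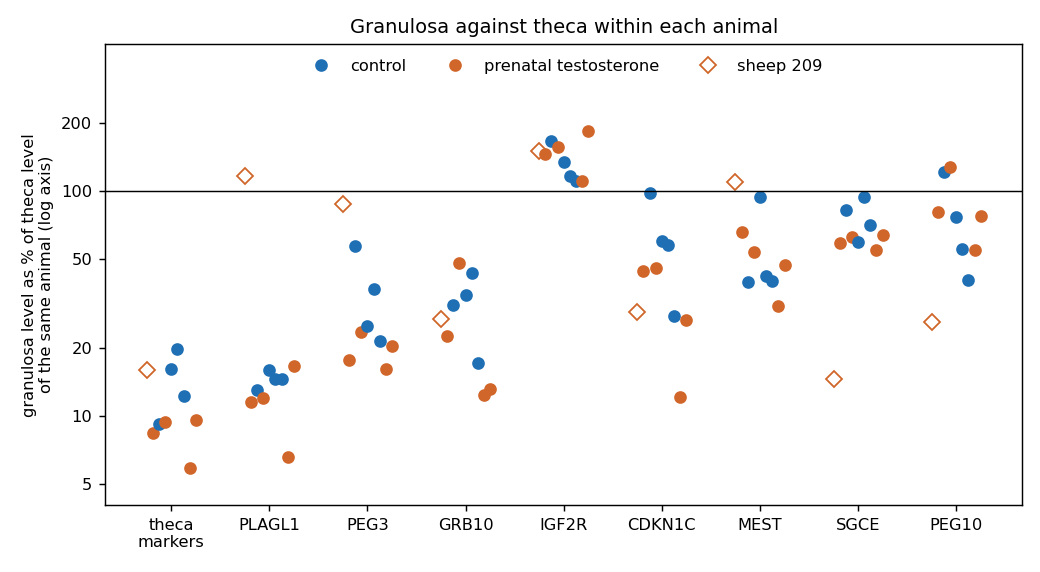
Granulosa level in percent of the theca level of the same animal (log axis) for the median of 14 theca markers and for 8 imprinted genes, with 1 symbol per animal, blue for controls, orange for prenatal testosterone and an open diamond for sheep 209. PLAGL1 sits at 6.56% to 16.7% in 8 animals, beside theca markers at 5.84% to 19.9%, whereas IGF2R is above 100% in all 9.

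Other cell types of the wall moved with the layers too. Of 10 smooth muscle and pericyte markers 9 were lower in granulosa (median -2.53), as were 9 of 10 endothelial markers (median -2.10) and 5 of 9 immune markers. Among all genes tested 28.0% were lower with all libraries and 32.2% without sheep 209. The part of these cells in the layer differences was not tested.

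Within control animals 5 of the 8 genes passed between layers (background 40.3%), and within prenatal T animals 7 of 8 (45.3%). PLAGL1, PEG3, GRB10, CDKN1C and MEST were lower in both. SGCE was at -0.40 ± 0.37 in controls and at -1.14 ± 0.34 in prenatal T animals, with IGF2R at 0.39 ± 0.23 and 0.56 ± 0.21, and both passed in the second group. Without sheep 209 SGCE passed in both in limma, at -0.40 ± 0.11 and -0.74 ± 0.11, but in controls not in edgeR (adjusted p = 0.18) or DESeq2 (0.12). Without sheep 209 the limma counts were 7 of 8 (51.4%) and 7 of 8 (55.3%). They were 4 and 5 in edgeR (36.9% and 36.1% of all genes) and 5 and 6 in DESeq2 (38.3% and 39.3%). There CDKN1C in controls (edgeR, adjusted p = 0.095) and MEST in prenatal T animals (edgeR, 0.054) did not pass. Nor did IGF2R in prenatal T animals (edgeR, 0.11, and DESeq2, 0.093). Some of these calls depended on the method. With all libraries 2 of 8 in controls and 4 of 8 in prenatal T animals passed without the block (16.5% and 18.7% of all genes). The counts were the same in edgeR (16.8% and 17.7%), and 3 and 4 passed in DESeq2 (22.3% and 23.9%). MEST and CDKN1C in controls and MEST, IGF2R and SGCE in prenatal T animals were lost in all 3 of these fits (adjusted p 0.067 to 0.38), and PEG3 in controls in the first 2 (0.077 and 0.079). Without the filter on low values CDKN1C in controls (0.083) and MEST and IGF2R in prenatal T animals (0.085 and 0.12) were lost. Single animals decided others. In prenatal T animals MEST no longer passed without sheep 210, 230, 276 or 315 (limma adjusted p 0.057 to 0.16), nor IGF2R without sheep 210, 230, 246 or 315 (0.052 to 0.12). In controls MEST did not pass without sheep 224 or 268 (0.065 and 0.067), nor CDKN1C without sheep 244, 246 or 268 (0.082 to 0.26).

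The list of other genes reported as imprinted in mammals had 54 names, of which 44 had a row and 31 were tested. MEG3 had no row by that name, and its sheep counterpart GTL2, given above, is not in these counts. Between the layers 7 of the 31 were higher and 12 lower in granulosa, with a median of 0.07. This and the list counts that follow stand against 29.2% higher and 28.0% lower, or 57.2% in all, among all genes tested. IGF2, the growth factor cleared by IGF2R, was 5.52-fold lower in granulosa (-2.46 ± 0.19). TFPI2, a protease inhibitor (-2.80 ± 0.31), and OSBPL5, a sterol-binding protein gene near CDKN1C in mammals (-1.30 ± 0.11), were lower as well, and TRAPPC9, a subunit of a vesicle tethering complex, was higher (0.63 ± 0.06). Without sheep 209 the counts were 10 higher and 12 lower (65.2% of all genes passed there), and INPP5F, an inositol phosphatase gene, was among those of smallest p (-0.82 ± 0.06).

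Of 16 genes within 2 places of a member in the gene table and tested, other than the members, 7 were higher in granulosa and 1, GTL2, was lower (57.2% of all genes passed). Without sheep 209, 9 were higher and 2 lower (65.2%). SLC22A18, a transporter gene next to CDKN1C, was higher in granulosa (1.46 ± 0.24), where CDKN1C was lower. DDC, aromatic L-amino acid decarboxylase, and FIGNL1, the 2 genes after GRB10, were higher as well (1.24 ± 0.38 and 0.85 ± 0.12). COPG2 beside MEST was at 0.21 ± 0.09, and PPP1R9A near PEG10 was higher (0.61 ± 0.22). LTV1 and SF3B5 near PLAGL1 were slightly higher (0.32 ± 0.09 and 0.39 ± 0.07).

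Around IGF2R and GRB10, the insulin and IGF signalling genes split. Of 21 partners tested, 8 were higher and 9 lower in granulosa. IGF1 (-4.20 ± 0.23), IGFBP4, a binding protein that holds IGFs back (-3.19 ± 0.19), IGF2 and NEDD4, a ubiquitin ligase that binds GRB10 (-1.63 ± 0.13), were the 4 of smallest p, all lower. Hence the ligand IGF2 and the adaptor GRB10 were both lower in granulosa, and the clearance receptor IGF2R was higher there in the paired fit.

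Of 19 cell cycle genes listed with CDKN1C and tested, other inhibitors of cyclin-dependent kinases among them, 9 were higher in granulosa and 2 lower. CDK6, a kinase of G1, was higher (1.50 ± 0.16), as were the S-phase genes CCNA2 (1.01 ± 0.17) and PCNA (0.78 ± 0.14). CCND3, a D-type cyclin, was lower (-1.30 ± 0.19). CDKN1C was lower in the same layer.

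The lists around the remaining genes were tested in the same fit. In the sarcoglycan and dystrophin complex of SGCE, 7 of 12 were lower and 3 higher, led by SGCD (-3.00 ± 0.16), LAMA2 (-2.82 ± 0.21), DMD (-2.10 ± 0.17) and UTRN (-0.67 ± 0.06). Of 14 Notch genes tested with DLK1, 8 were lower and 2 higher, with HEYL (-2.48 ± 0.18), NOTCH3 (-2.37 ± 0.30) and NOTCH4 (-1.08 ± 0.13) among the lower ones and ADAM17, a protease that can shed DLK1, higher (0.75 ± 0.11). Of 7 retrotransposon-derived relatives of PEG10, LDOC1 (-1.35 ± 0.15), RTL6 (-0.44 ± 0.07) and RTL8C (-0.27 ± 0.06) were lower and 2 were higher, RTL10 among them (1.32 ± 0.25). Of 6 relatives and partners of PEG3 and PLAGL1, 3 were higher, TRAF2 (0.37 ± 0.07) and BAX (0.32 ± 0.09) among them, and SIAH1 was lower (-0.24 ± 0.09).

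Of 16 genes linked to imprints or DNA methylation, TET1, TET2 and TET3 among them, 8 were higher in granulosa and 2 lower. ZFP57, a zinc-finger protein that protects methylated imprints, was 6.02-fold lower in granulosa (-2.59 ± 0.21). DNMT3B and UHRF1, of the DNA methylation machinery, were higher (0.91 ± 0.14 and 1.06 ± 0.20), as was PADI6 (3.73 ± 0.62), known from the oocyte. PADI6, NLRP2 and KHDC3L of this list were above 0 in 73.7%, 63.2% and 57.9% of libraries. Oocyte markers summed to 35.7 to 583 in granulosa libraries and to 26.2 to 63.5 in theca libraries. The part of oocyte RNA in PADI6 and the other values of this list was not tested.

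The second comparison asks whether exposure to testosterone before birth left a difference in the adult follicle. In granulosa 0 of the 8 tested genes passed, where 0% of all 14724 genes passed in limma (622 had an unadjusted p under 0.05, edgeR called 0 and DESeq2 16). PEG3 and CDKN1C had the smallest unadjusted p of the 8. PEG3 averaged 1837 ± 1069 (SD, n = 4) in control and 767 ± 318 (n = 5) in prenatal T granulosa, a change of -1.22 ± 0.42 (limma, unadjusted p = 0.017, adjusted p = 0.88). Without sheep 209 it was -0.99 ± 0.36 (limma, unadjusted p = 0.023, adjusted p = 0.70), where 7.01% of all genes had an unadjusted p under 0.05. The highest prenatal T value, 1156 in sheep 315, was above the lowest control value, 1105 in sheep 268, so the groups overlapped.

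CDKN1C averaged 464 ± 201 (n = 4) in control and 212 ± 125 (n = 5) in prenatal T granulosa, a change of -1.26 ± 0.52 (limma, unadjusted p = 0.037, adjusted p = 0.88), and -0.94 ± 0.42 without sheep 209 (unadjusted p = 0.053). Values of 379 and 284 in sheep 210 and 230 lay within the control range. GRB10 was at -0.83 ± 0.51, from 453 ± 191 to 269 ± 157, and sheep 230, at 502, was higher than 2 of 4 controls. None of the 8 genes had separate groups, where 2.41% of all tested genes did (3.85% without sheep 209).

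The other members in granulosa had errors as large as their changes or nearly so. SGCE was at -1.02 ± 0.81 and PEG10 at -1.75 ± 1.51 with sheep 209, and at -0.24 ± 0.22 and -0.27 ± 0.34 without it. PLAGL1 turned from 0.28 ± 0.67 to -0.32 ± 0.33, and MEST from -0.10 ± 0.43 to 0.10 ± 0.39. IGF2R was at -0.01 ± 0.46 and -0.36 ± 0.32. The median of the 8 genes was -0.92 against -0.015 for all genes tested, and without sheep 209 it was -0.34 against -0.013.

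Theca markers moved in the same direction in these granulosa libraries. Their summed level was 35847 to 86203 in control and 21704 to 43280.0 in prenatal T granulosa, with the same range without sheep 209. In theca itself the sum was 663346 to 899962 in control and 610178 to 724986 in prenatal T libraries without sheep 209. Without sheep 209, 13 of 14 theca markers had a change below 0 in granulosa (median -0.65), and 0 passed. Of all genes tested there, 47.9% had a change above 0. PEG3, GRB10 and CDKN1C are genes with more RNA in theca, and the part of theca RNA in their lower granulosa values was not tested. PLAGL1, SGCE, PEG10 and MEST were also lower in granulosa than in theca in limma without sheep 209. Their prenatal T changes in granulosa were -0.32, -0.24, -0.27 and 0.10 without that animal.

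In theca 0 of 8 passed too, where 0% of 15492 genes passed in limma. The unadjusted limma p was under 0.05 for 0 of the 8 genes, against 7.69% of all genes. Without sheep 209 it was under 0.05 for 3 of the 8, against 12.1% of all genes. All 8 changes were below 0 with sheep 209 and 5 of 8 without it. With sheep 209 the median of the 8 genes was -0.304, against 0.000146 for all genes tested. Without that animal the median was -0.1103 against -0.0125, and 48.3% of all genes tested had a change above 0. PEG10 averaged 6768 ± 1104 (n = 5) in control theca and 4001 ± 2453 (n = 5) in prenatal T theca, or 4981 ± 1277 (n = 4) without sheep 209. Its change was -1.63 ± 1.03, and without sheep 209 -0.46 ± 0.18 (limma, unadjusted p = 0.024, adjusted p = 0.38). Sheep 276, at 6566, lay within the control range.

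IGF2R in theca was at -0.18 ± 0.35 with all animals, and at -0.52 ± 0.20 without sheep 209 (limma, unadjusted p = 0.027, adjusted p = 0.39), from 5516 ± 738 in controls to 4009.8 ± 1549.9 (n = 4). Sheep 210, 230, 276 and 315 held 6285, 3205, 2885 and 3665, so 3 of these 4 were below every control. GRB10 was at -0.32 ± 0.17 and -0.37 ± 0.17. PEG3 went from -0.87 ± 0.62 to -0.20 ± 0.21 without sheep 209. CDKN1C, SGCE, MEST and PLAGL1 were between -0.42 and -0.10 with all animals and between -0.03 and 0.11 without sheep 209. Again no gene of the 8 had separate groups (2.26% of all tested genes, 4.61% without sheep 209).

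**Figure D4:**
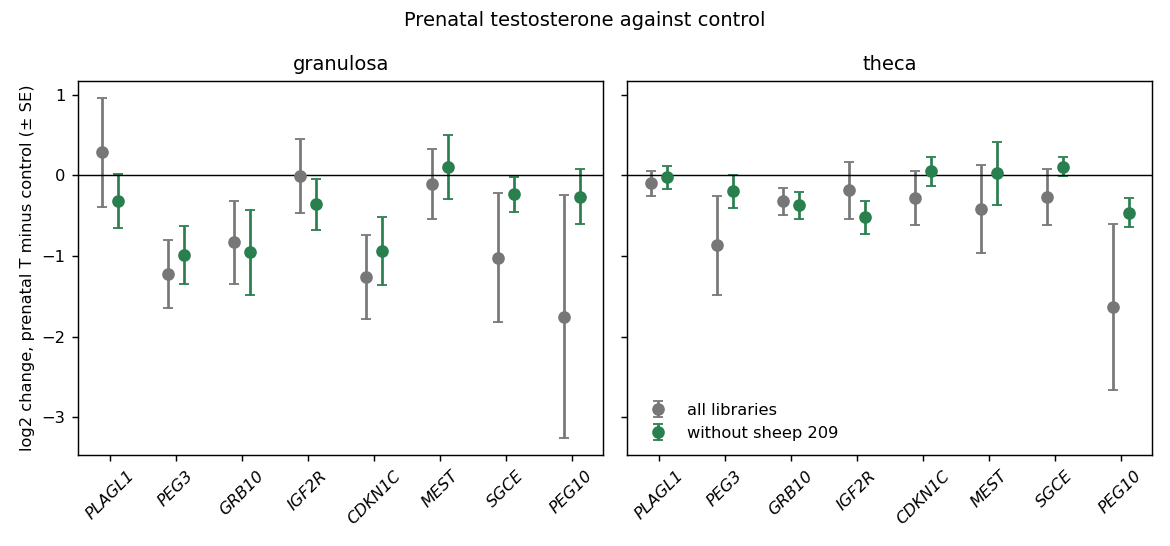
Change of the 8 tested imprinted genes with prenatal testosterone (log2, prenatal T minus control, linear axis, bars of ± 1 SE, limma) in granulosa (left) and theca (right), with all libraries in grey and without sheep 209 in green. No gene passed in either layer, and the error of PEG10 shrinks from 1.51 to 0.34 in granulosa and from 1.03 to 0.18 in theca without sheep 209.

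The difference between the layers in the treatment effect was tested as an interaction. Of the 8 genes 0 passed, where 0% of 16269 did. CDKN1C had the smallest unadjusted p, at -0.96 ± 0.42 (granulosa effect minus theca effect, limma adjusted p = 0.92), and -0.97 ± 0.39 without sheep 209 (adjusted p = 0.50). Without sheep 209, PEG3 was at -0.77 ± 0.30 and SGCE at -0.34 ± 0.16, with adjusted p of 0.49 and 0.55. A dependence of the layer difference on treatment was therefore not shown for any of the 8. In each of the lists above 0 genes passed in either prenatal T comparison.

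The spread between animals differed from gene to gene. SGCE in theca varied least, with an SD of 0.17 log2 units over the 5 controls and 0.12 over 4 prenatal T sheep (without sheep 209), where the median gene had 0.29 and 0.27. MEST in control theca varied more (0.82), since sheep 244 and 246 held 119.5 and 98.5 and the other 3 at least 286. GRB10 in granulosa had an SD of 0.79 in controls and 0.98 in prenatal T animals, against medians of 0.31 and 0.32.

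Whether the genes varied together across animals was examined within each layer without sheep 209, over 56 pairs in all. None passed (exact permutation tests, two-sided, smallest adjusted p = 0.38), 5 had an unadjusted p under 0.05, and 37 of 56 had r above 0. The pair of smallest p was GRB10 and CDKN1C in granulosa, with r = 0.79 (exact permutation p = 0.015, n = 8) and rho = 0.69 (exact permutation p = 0.069). Without the 2 animals farthest from the median of GRB10 r was 0.43 (exact permutation p = 0.38, n = 6). Taken as deviations from the treatment means r was 0.70 (exact permutation p = 0.056, n = 8). With all libraries 0 of 56 passed as well (smallest adjusted p = 0.067, 14 unadjusted).

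Last, the 2 tested genes whose log2 values were most like each member were sought over the 17 libraries without sheep 209. These values of Pearson's r are descriptions and include the layer difference, which all genes of 1 layer share. PLAGL1 was most like CPNE2, a copine, and ACTA2, the actin of smooth muscle (r = 0.99 for both). Within granulosa alone r was 0.92 for each, and within theca 0.80 and 0.79. GRB10 was most like TCF4 (0.98), a basic helix-loop-helix factor, and PEG3 like RCOR2 (0.96) and FAM149A (0.96). MEST was most like STC2, stanniocalcin 2 (0.95), and stayed at 0.93 within granulosa and 0.90 within theca. IGF2R was nearest to TLN2, talin 2 (0.91), and IRS2, an insulin receptor substrate (0.89, with 0.98 within granulosa and 0.80 within theca). CDKN1C was nearest to PAWR (0.94), but within theca that r was -0.13. SGCE was near to GPM6B (0.93), and PEG10 nearest to SCRN2 (0.86) and LRP3 (0.85).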

How the data were processed

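The authors deposited 1 table of signal, gene counts that had been scaled by 1 size factor per library. Per the submitters' processing notes, STAR 2.6.0c, featureCounts (Subread 1.6.1), DESeq2, FastQC 0.11.5 and MultiQC 0.9 were used. A genome build was not given in the sources used here. Values were whole multiples of 1 step per library (100%, relative tolerance 1e-06), so whole reads were recovered. The 19 columns were matched to 10 animals by sheep ID, and 0 columns of values lacked a sample. RefSeq names for sheep assembly ARS-UI_Ramb_v3.0 gave symbols to 406 of 10441 LOC identifiers (6969 matched) and the order of neighbouring genes. Counting intervals hold counting error only.

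Genes with at least 10 in at least 5 libraries of a comparison (14724 in granulosa, 15492 in theca, 16269 in both) were tested with limma-trend (limma 3.58.1 under R 4.3.3) after adding 1 and taking log2, so changes of low genes are understated. Layer comparisons and the interaction had the animal as a block (correlation 0.62, and 0.52 without sheep 209), since both layers come from the same animals. Layer deviations from the group means correlated at 0.42 to 0.80 in 9 animals. No pair of libraries of a group was a repeat (over 36 pairs, chi-square divided by its degrees of freedom was at least 21.9). Tests were two-sided with Benjamini-Hochberg adjustment over all genes at 0.05. The fits recovered known changes in simulated counts, which had no animal effect and took their spread from the libraries without sheep 209. That setting differs from the data, so the simulation does not show which changes the tests here could detect.

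The members, lists and markers were chosen with earlier results of these data known. Genes named are the members, at most 4 passing genes of smallest p per list, and the 2 genes most like each member. Some genes that this rule selects are left out of the text. Flanking genes (up to 2 on each side) were added outside this rule, and those printed were chosen after their values were seen. Alternatives were a pseudocount of 5, no filter, TMM scaling, edgeR 4.0.16 and DESeq2 1.42.0 on the recovered reads, no block, and leaving out each animal. Python 3.11.15 with scipy 1.17.1 gave the exact permutation tests.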

Additional observations from a re-analysis of the deposited data

Results flagged for a closer look

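Of 32 groups of 4 or 5 libraries examined (8 genes in 4 groups), 3 held a library whose gap to the nearest other was beyond the 95% critical value of Dixon's test, which chance gives in about 1 group of 20. All 3 values were from sheep 209. PLAGL1 in prenatal T granulosa was 657.03 in that animal, against 41.3 to 122 in the other 4. SGCE in prenatal T granulosa was 48.33, against 658 to 874, and SGCE in prenatal T theca was 331.5, against 1140.0 to 1394. The same libraries lack AMH, FSHR, CYP19 and CYP17A1 and hold high summed epithelial and immune markers. The part of these differences in the PLAGL1 and SGCE values was not tested.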

How the results depend on the processing

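Of 856 values of the 8 tested genes under the alternatives, 776 kept their direction and side of the threshold, 45 lost the call, 3 gained it and 32 changed sign, all 32 in prenatal T comparisons without calls. Counts of genes called in granulosa for prenatal T (0) were 16 in DESeq2, 32 in DESeq2 without sheep 209 and 1 with all libraries in 1 model with a replicate block, and in theca 7 and 58 in DESeq2. For the difference of effects 2 were called with no filter and 0 to 1 when each animal was left out. Between layers (9309 genes) 5729 were called with no replicate block and 5812 in edgeR, within controls (6549) 2691, 2729 and, in DESeq2, 3622, and within prenatal T animals (7367) 3048, 2873 and 3883. Signs changed without sheep 209, in edgeR and DESeq2 respectively, for MEST (0.053 and 0.057) and PLAGL1 (-0.20 and -0.20) in granulosa, for CDKN1C (0.039 and 0.036) and SGCE (0.11 and 0.11) in theca, and for the difference of effects of PLAGL1 (-0.23 and -0.18). With all libraries IGF2R was at 0.23 and 0.23 in granulosa and 0.024 and 0.040 in theca, and the PEG10 difference in DESeq2 was 0.015, or 0.024 without sheep 209. Leaving out 1 library at a time gave, in granulosa, -0.48 to 0.10 for MEST, -0.32 to 0.67 for PLAGL1 and -0.36 to 0.28 for IGF2R, and in theca -0.67 to 0.028 for MEST, -0.42 to 0.048 for CDKN1C, -0.52 to 0.0032 for IGF2R and -0.41 to 0.11 for SGCE. For the difference it gave -0.0018 to 0.52 for MEST, -0.34 to 0.68 for PLAGL1 and -0.33 to 0.23 for PEG10 (0.21 without sheep 224). TMM scaling moved the median of all genes by less than 0.1. Causes were not tested. Depth limited the statement on DLK1.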
